A study of Mus musculus with 26 samples.

Results

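Mouse fibroblasts that received Pou5f1, Sox2, Klf4 and cJun were compared at day 7 and day 3 of reprogramming, with 2 libraries on each day. The genes described were the 13119, of 18198 in the table, with a value of 10 or more in at least 2 of these 4 libraries. All 4 libraries reached that value for 11692 of them, 703 genes were just inside the rule with exactly 2 such libraries, and 820 were just outside it with 1. The libraries came from embryonic fibroblasts (MEF) within 2 passages, infected with retrovirus that carried the factors, and are labelled OSK-cJun at day 7 and day 3. The same retroviral factors without cJun, labelled OSK, gave the day 7 and day 3 libraries set beside them, also 2 each. OSK-cJun libraries of days 0 and 1, OSK libraries of days 0, 1 and 5, OSK with an shRNA against Sap30 at day 7, iPSC, ESC and unconverted MEF made up the rest of the 26 libraries. The labels name both a serum-free and a serum-containing medium for the reprogramming cells and do not assign either to a library. They also do not say whether the 2 libraries of a group were separate cultures, so p-values measure the spread between libraries, which may be technical.

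Jun is a subunit of AP-1, a family of transcription factor dimers made of Jun, Fos and related proteins that keeps many fibroblast enhancers active. Reprogramming with Pou5f1, Sox2 and Klf4 normally passes through loss of mesenchymal genes, gain of epithelial genes, a shift of metabolism towards glycolysis and, late, activation of the endogenous pluripotency genes. Added Jun is known as a barrier to this route.

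The deposited values are a score, forced by the authors' processing to the same distribution in every library, so depth is unknown, library totals carry no information and the most abundant genes tie at a ceiling of 21544. Below that ceiling abundant genes also share repeated values, such as 8981, which Jun and the gene B2m both had in replicate 1 of day 7. Equal high values in 2 libraries therefore do not show that the libraries matched closely. A change below is a log2 fold of value + 1, day 7 over day 3. A gene was called when its Benjamini-Hochberg adjusted p from limma was below 0.05 and its log2 fold was at least 1 in size. In bulk RNA, fewer cells with a transcript and less of it per cell cannot be told apart, and transcripts of the delivered factors may not be separable from those of the endogenous genes. Across genes, log2 values of the 2 day 7 libraries correlated at 0.946 and those of the 2 day 3 libraries at 0.95, while the replicate 2 libraries of the 2 days correlated at 0.947. Libraries of different days with the same replicate number were thus about as alike as the 2 libraries of a day.

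The delivered factors were present on both days. Jun had 8981 and 6124 at day 7, against 7721 and 6929 at day 3. In OSK without cJun the same gene had 1010 and 582 at day 7, against 536 and 425 at day 3, so all 4 OSK-cJun libraries lay well above those of OSK. Klf4 had 8974 and 6116 at day 7, against 7715 and 6923 at day 3, and Sox2 had 6116 and 4609, against 6116 in both libraries. Pou5f1 had 11663 and 8974 at day 7, against 21544 and 11663 at day 3, where 1 value stood at the ceiling. None of the 4 factors was called, with log2 folds of 0.02 for Jun (SE 0.37), 0.02 for Klf4 (SE 0.50), -0.20 for Sox2 (SE 0.48) and -0.63 for Pou5f1 (SE 0.97).

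Between day 3 and day 7 few genes were called, and most of those called were higher at day 7, a balance that changed with the spread used. Among all 16038 genes tested, 92 were called (0.574%), 75 of them higher (0.468%) and 17 lower (0.106%) at day 7. Of the 13119 genes of the rule, 69 were called higher and 14 lower, and the other 9 calls fell on genes outside the rule. Without correction, 1480 genes had p below 0.05. Both day 7 libraries lay above both day 3 libraries for 17.5% of genes tested and below both for 19.3%. The median absolute log2 fold of the 13119 genes was 0.245 with cJun, against 0.427 for the same genes in OSK. For 12 genes called higher both day 3 libraries were listed at 0, and for 4 called lower both day 7 libraries were. The number of calls rested on single libraries: 40 genes were called without replicate 1 of day 7, 19 without replicate 2 of day 7, 19 without replicate 1 of day 3 and 46 without replicate 2 of day 3. With the spread taken from the 4 compared libraries alone 0 genes were called by limma (1636 at unadjusted p below 0.05), and with the spread of the 8 OSK-cJun libraries 37 were called higher and 38 lower. Of the 43 called genes with values given here, 5 stayed called whichever of the 4 libraries was left out: Spock2, Pdk1, Elf3, Hspb1 and Ly6c1.

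**Figure D1:**
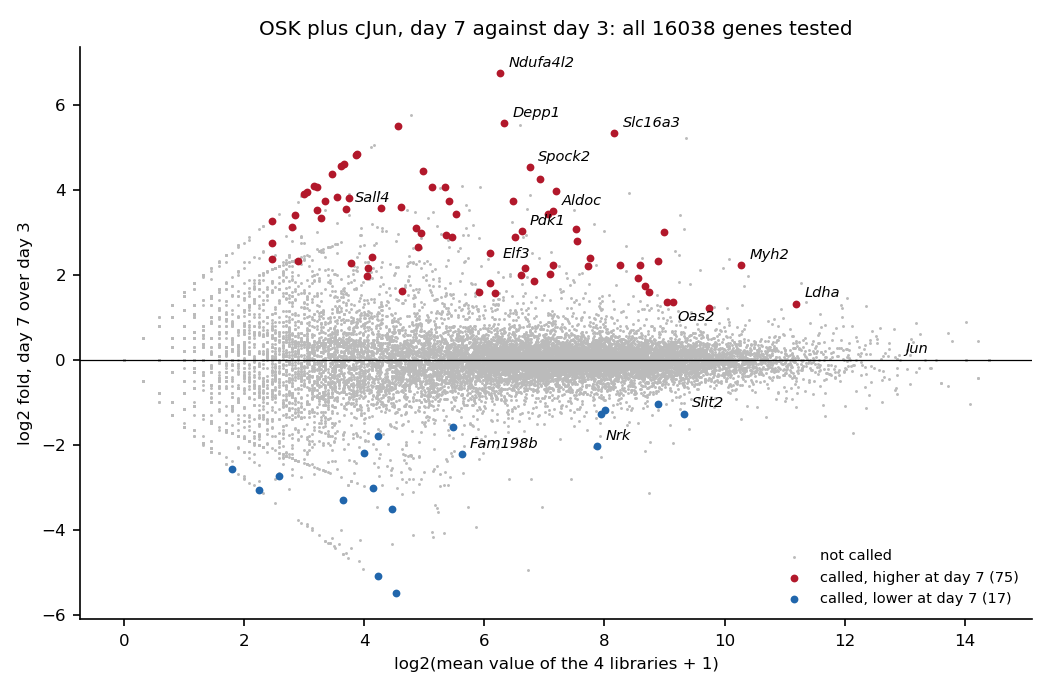
Each point is 1 of the 16038 genes tested, with the mean level of the 4 libraries on the x axis (log2 of the mean value + 1) and the log2 fold of day 7 over day 3 on the y axis. The 75 genes called higher reach 6.74 (Ndufa4l2), the 17 called lower include Fam198b, Nrk and Slit2, and Jun lies at 0.02.

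Genes that cells switch on when oxygen is short, and genes of glucose breakdown, were among the largest increases. Ndufa4l2, a relative of a respiratory chain subunit that dampens mitochondrial activity in low oxygen, had 137 and 165 at day 7, against 0 and 1 at day 3 (log2 fold 6.74, SE 1.09, adjusted p = 0.0082). The gene (ENSMUSG00000040280, protein coding, chr10:127514967-127517154 on GRCm38) was close to 0 in both day 3 libraries, and 2 and 2 at day 0 and 0 and 0 at day 1. Slc16a3, the exporter that carries lactate out of glycolytic cells, had 582 and 536 at day 7, against 14 and 12 at day 3 (log2 fold 5.32, SE 1.06, adjusted p = 0.0275). Its course was not one-way: it had 348 and 249 at day 0 and 39 and 20 at day 1, so day 3 was its low point and the 2 days compared did not overlap. Pdk1, the kinase that keeps pyruvate out of mitochondria, had 161 and 186 at day 7, against 15 and 28 at day 3 (log2 fold 3.01, SE 0.36, adjusted p = 0.00155). It had the same dip, with 74 and 92 at day 0 and 24 and 24 at day 1.

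Bnip3, which marks mitochondria for removal, had 306 and 352 at day 7, against 34 and 43 at day 3 (log2 fold 3.07, SE 0.60, adjusted p = 0.0271). Aldoc, an aldolase, had 223 and 295 at day 7, against 22 and 22 at day 3 (log2 fold 3.48, SE 0.59, adjusted p = 0.00875). Ak4, a mitochondrial adenylate kinase, had 322 and 365 at day 7, against 61 and 90 at day 3 (log2 fold 2.19, SE 0.39). Each of these 3 genes was several-fold higher in both day 7 libraries than in either day 3 library. Pfkl, a phosphofructokinase subunit at the committed step of glycolysis, had 642 and 612 at day 7, against 151 and 232 at day 3, a rise of 1.74 (SE 0.28). Ldha, which turns pyruvate into lactate, had 3407 and 3265 at day 7, against 1311 and 1363 at day 3, a rise of 1.32 (SE 0.21, adjusted p = 0.00801). Mif, a secreted cytokine, had 1111 and 1280 at day 7 against 487 and 534 at day 3, and Plod1, a collagen lysyl hydroxylase, 694 and 919 against 255 and 384, with rises of 1.22 and 1.35.

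Of the 18 glycolysis genes tested, 4 were called higher and 0 lower, 14 had both day 7 libraries above both day 3 libraries and 0 had both below, and their median log2 fold was 0.79, against 0 over all genes tested. The list of 26 hypoxia-inducible genes was written after values had been seen, so its counts describe and support nothing: 6 of 25 tested were called higher, 0 lower, 19 lay above, and the median was 0.88. Tpi1, another glycolytic enzyme, had 2310 and 2076 at day 7, against 1191 and 1140 at day 3, and with a log2 fold of 0.91 (adjusted p = 0.04) stayed under the fold threshold. The glucose transporter Slc2a1 had 715 and 650 at day 7, against 262 and 311 at day 3 (log2 fold 1.25, adjusted p = 0.224), and Vegfa, the vessel growth factor, 388 and 347 against 174 and 235 (0.86, adjusted p = 0.60). Egln3, an oxygen-sensing prolyl hydroxylase, had 94 and 106 at day 7, against 18 and 24 at day 3 (2.21, adjusted p = 0.0654). Hif1a, the oxygen-regulated factor itself, which is controlled mainly at the protein level, had 968 and 894 at day 7, against 1301 and 1092 at day 3 (-0.36, adjusted p = 0.788). The 22 respiratory chain genes held 0 calls, with 3 above, 0 below and a median of 0.17, and its 2 most abundant genes differed between the libraries of a day. Atp5b, of the ATP synthase, had 4616 and 21544 at day 7, against 4307 and 6929 at day 3, and Ndufa4 874 and 3405 against 1128 and 5480. Txnip, which restrains glucose uptake, was chosen after its values were seen and had 617 and 950 at day 7, against 216 and 106 at day 3, a rise of 2.33 (SE 0.45).

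**Figure D2:**
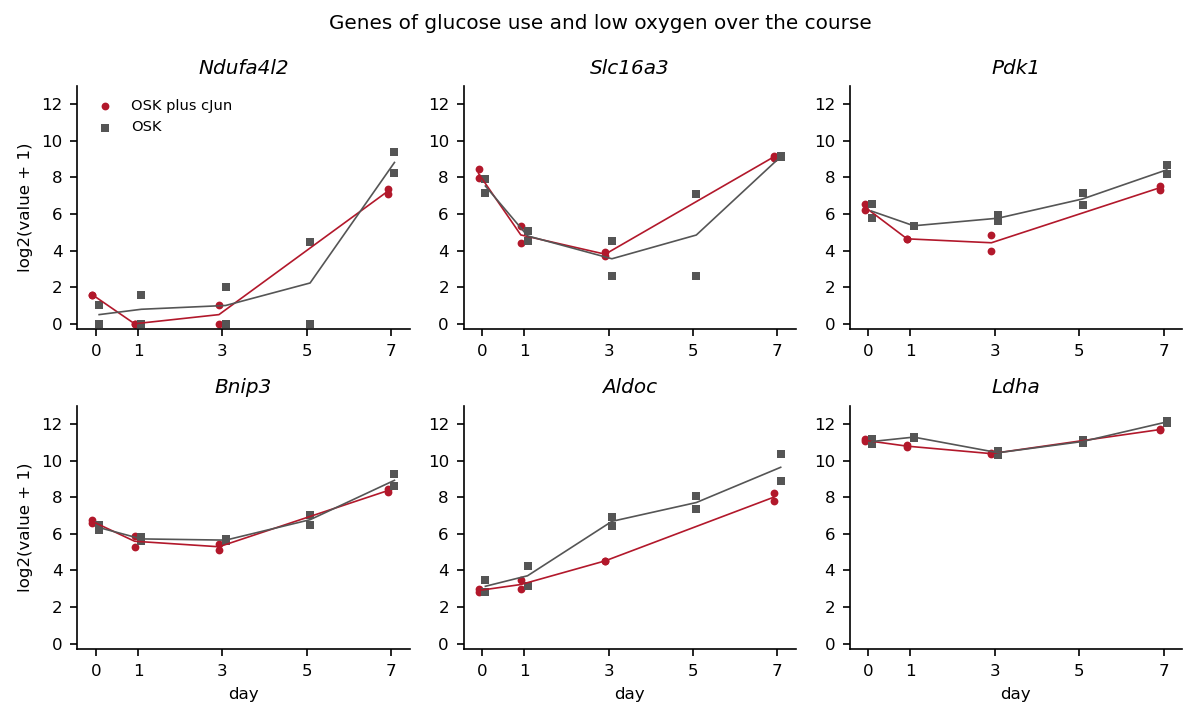
Log2 of value + 1 (y axis) against day (x axis) for 6 genes, with every OSK-cJun library as a red circle, every OSK library as a grey square and lines through the group means. Slc16a3 and Pdk1 fall from day 0 to day 3 of OSK-cJun and are high at day 7, while Ndufa4l2 is near 0 until day 3, and the OSK course has the same late rise.

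The promoters of 3 of these genes are shown for the short core that hypoxia-inducible factors bind, ACGTG or GCGTG, with the largest increase that has a sequence in the table used (Depp1) and, for contrast, the 2 largest decreases among genes with a mean of at least 50 on the higher day (Fam198b, Nrk). Each is 300 bases from RefSeq on GRCm38.p6, from 250 before to 50 after the start RefSeq gives, read 5′ to 3′ on the gene's strand. Capitals mark matches on either strand to that core, to the AP-1 site TGANTCA, the octamer ATGCAAAT, the E-box CACGTG, the SP/KLF site GGGCGG and the interferon response element core, and the hypoxia core can lie inside an E-box. The windows are chr11:120948817-120949116 (+) for Slc16a3, chr2:71872974-71873273 (+) for Pdk1, chr7:138909457-138909756 (-) for Bnip3, chr6:116650434-116650733 (+) for Depp1, chr3:79885680-79885979 (+) for Fam198b, which RefSeq lists as Gask1b, and chrX:138914180-138914479 (+) for Nrk. Ndufa4l2 is named only.
Slc16a3: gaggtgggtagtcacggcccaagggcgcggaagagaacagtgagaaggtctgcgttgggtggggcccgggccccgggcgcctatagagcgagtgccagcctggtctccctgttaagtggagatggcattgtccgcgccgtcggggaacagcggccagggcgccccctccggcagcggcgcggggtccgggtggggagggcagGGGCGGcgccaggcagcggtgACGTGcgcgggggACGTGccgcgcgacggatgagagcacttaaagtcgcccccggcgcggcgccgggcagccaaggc
Pdk1: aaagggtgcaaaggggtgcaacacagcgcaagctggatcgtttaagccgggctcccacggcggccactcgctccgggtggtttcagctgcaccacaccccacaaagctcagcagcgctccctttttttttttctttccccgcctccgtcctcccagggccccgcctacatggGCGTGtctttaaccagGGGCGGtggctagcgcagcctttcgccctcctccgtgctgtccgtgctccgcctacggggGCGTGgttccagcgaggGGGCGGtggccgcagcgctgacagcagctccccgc
Bnip3: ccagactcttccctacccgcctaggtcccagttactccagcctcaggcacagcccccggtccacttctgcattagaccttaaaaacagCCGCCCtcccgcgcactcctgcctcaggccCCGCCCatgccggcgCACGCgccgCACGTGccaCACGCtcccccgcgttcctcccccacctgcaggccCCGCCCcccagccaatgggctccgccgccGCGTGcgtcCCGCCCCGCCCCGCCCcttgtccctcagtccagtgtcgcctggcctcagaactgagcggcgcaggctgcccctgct
Depp1: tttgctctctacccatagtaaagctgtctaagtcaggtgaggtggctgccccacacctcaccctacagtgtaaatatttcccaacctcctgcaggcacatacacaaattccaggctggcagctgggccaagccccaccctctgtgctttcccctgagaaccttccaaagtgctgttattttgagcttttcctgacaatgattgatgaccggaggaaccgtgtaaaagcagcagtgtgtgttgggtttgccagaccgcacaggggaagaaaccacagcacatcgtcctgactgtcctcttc
Fam198b: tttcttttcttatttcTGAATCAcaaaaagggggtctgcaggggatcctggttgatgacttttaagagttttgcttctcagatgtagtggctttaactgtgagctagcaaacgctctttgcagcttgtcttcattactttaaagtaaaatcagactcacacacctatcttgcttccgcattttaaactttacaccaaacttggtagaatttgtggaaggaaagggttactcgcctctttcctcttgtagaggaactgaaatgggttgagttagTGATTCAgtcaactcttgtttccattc
Nrk: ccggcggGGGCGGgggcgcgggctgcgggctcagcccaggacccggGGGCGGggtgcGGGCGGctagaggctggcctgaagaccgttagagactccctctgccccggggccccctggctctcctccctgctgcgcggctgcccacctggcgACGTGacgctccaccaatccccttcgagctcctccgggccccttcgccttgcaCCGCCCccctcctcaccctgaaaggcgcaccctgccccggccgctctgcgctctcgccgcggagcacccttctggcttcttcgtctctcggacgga
Slc16a3 and Pdk1 each held 2 hypoxia cores, and Depp1 held none of the motifs. Bnip3 held 5 core matches, 2 of them on opposite strands of its 1 E-box. Fam198b held 2 AP-1 matches, and Nrk held 4 SP/KLF matches and 1 hypoxia core.

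Promoters were found for 11965 of the 16038 genes tested, for 58 of the 75 called higher and for 13 of the 17 called lower. The AP-1 site was present in 1 of 58 (1.72%) called higher and 1 of 13 (7.69%) called lower, against 5.53% of all. The octamer bound by Pou5f1 was in 3 of 58 (5.17%) called higher and 0 of 13 called lower, against 1.52%. The interferon response element core was in 0 of 58 and 0 of 13, against 3.01%, and the E-box in 5 of 58 (8.62%) and 0 of 13, against 9.70%. The SP/KLF site was in 32 of 58 (55.2%) called higher and 10 of 13 (76.9%) called lower, against 61.0%. The hypoxia core, searched after values had been seen, was in 31 of 58 (53.4%) called higher and 7 of 13 (53.8%) called lower, against 60.4%. It was in all 9 promoters found for the 10 called genes of the glycolysis and hypoxia lists, and the SP/KLF site was in all 9 as well. These are letter matches in a short window and were not tested.

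The other large increases fell on genes of varied roles. Depp1, a stress-responsive regulator of autophagy, had 284 and 30 at day 7, against 0 and 3 at day 3 (log2 fold 5.55, SE 0.95, adjusted p = 0.0103), with the 2 day 7 libraries far apart. Spock2, a matrix proteoglycan of the testican family, had 206 and 207 at day 7, against 9 and 7 at day 3 (log2 fold 4.54, SE 0.57, adjusted p = 0.00183), and was the closest-matched pair among the large increases. Igfbp2, a binding protein for insulin-like growth factors, had 78 and 73 at day 7, against 6 and 2 at day 3 (4.06, adjusted p = 0.0402), having had 148 and 81 at day 0. Clec3b, which encodes the plasminogen-binding protein tetranectin, had 289 and 259 at day 7, against 18 and 15 at day 3 (3.98, SE 0.63). In all 4 genes the libraries of the 2 days did not overlap.

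Crh, the corticotropin-releasing hormone gene, had 106 and 25 at day 7, against 4 and 1 at day 3, and Pcdh8, a protocadherin, 45 and 71 against 0 and 6. Atp2b2, a calcium pump of the plasma membrane, had 191 and 135 at day 7, against 20 and 6 at day 3, and Scn4b, a sodium channel subunit, 85 and 72 against 5 and 5. Ly6g6c, of the Ly6 family of surface proteins, had 98 and 69 at day 7, against 9 and 5 at day 3, and Lgals7, the galectin of stratified epithelia, 153 and 336 against 14 and 29. The log2 folds of these 6 genes ran from 3.42 to 4.44, with adjusted p from 0.0116 (Crh) to 0.0452 (Pcdh8). Among 16 neural genes tested, Dcx, which binds microtubules in young neurons, was the 1 called, with 15 and 13 at day 7 and both day 3 libraries listed at 0. With Dcx counted, the neural list had 5 genes above, 2 below and a median of 0.24.

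Another 4 genes called higher were chosen after their values were seen. Ly6c1, a surface antigen gene, had 789 and 1027 at day 7, against 107 and 118 at day 3 (log2 fold 2.99, SE 0.41), though its near-identical neighbour Ly6c2, also called, may share its reads. Hspb1, a small heat shock protein, had 676 and 606 at day 7, against 253 and 176 at day 3 (1.60, SE 0.21, adjusted p = 0.00248). Myh2, a myosin heavy chain of fast muscle, had 2039 and 2039 at day 7, against 460 and 418 at day 3 (2.21, SE 0.44). None of the 11 skeletal and cardiac muscle genes tested was called (median 0.08). Myb, a transcription factor of progenitor cells, had 127 and 102 at day 7, against 23 and 16 at day 3 (2.51, SE 0.41).

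Nkd1, Dkk2 and Tcf7, all called higher, belong to Wnt signalling, in which secreted ligands act through TCF/LEF factors that in turn switch on inhibitors of the pathway. Nkd1, an intracellular inhibitor and target, had 148 and 312 at day 7, against 12 and 9 at day 3 (log2 fold 4.24, SE 0.67, adjusted p = 0.00811). Dkk2, a secreted antagonist, had 359 and 644 at day 7, against 73 and 142 at day 3 (2.23, SE 0.37, adjusted p = 0.00851). Tcf7, one of the TCF/LEF factors, had 91 and 88 at day 7, against 32 and 26 at day 3 (1.60, SE 0.32, adjusted p = 0.0261). Notum, an enzyme that inactivates Wnt ligands, had 180 and 425 at day 7, against 42 and 109 at day 3, and missed the threshold (2.01, SE 0.80, adjusted p = 0.395). The list of 17 Wnt targets and antagonists was written after values had been seen. Of the 16 tested, 3 were called higher and 0 lower, 8 lay above and 3 below, with a median of 0.52.

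Epithelial genes lay higher at day 7 as a list, without a single call in the fit used. Of 23 tested, 19 had both day 7 libraries above both day 3 libraries, 0 had both below, and the median log2 fold was 2.03, the highest of the 37 lists. In OSK without cJun 15 of the 23 were called higher, 18 lay above and 2 below, and the median was 2.56. Cdh1, the epithelial cadherin, had 335 and 484 at day 7, against 34 and 54 at day 3 (log2 fold 3.20, SE 0.87, adjusted p = 0.134). Epcam, an epithelial adhesion molecule, had 401 and 731 at day 7, against 59 and 118 at day 3 (2.68, SE 0.63, adjusted p = 0.065). Krt8 and Krt19, keratins of simple epithelia, had 1402 and 1860 against 282 and 468, and 771 and 1291 against 185 and 178, with adjusted p of 0.45 for Krt8 and 0.33 for Krt19. Cdh1 had been 2 and 5 at day 0 and 15 and 18 at day 1, so it was higher at each later day sampled. Dsp, the desmosome plaque gene, had 7721 and 6123 at day 7, against 4013 and 4616 at day 3, where it was already abundant (0.68, adjusted p = 0.841). The lack of calls depended on the fit. Cdh1 and Epcam passed the call with a pseudocount of 8, and Cdh1 and Krt19 with the spread of the 8 OSK-cJun libraries. Krt8 and Dsp passed in no alternative.

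Other called genes of epithelial cells lay outside that list and were chosen after their values were seen. Elf3, an ETS factor of epithelial cells, had 113 and 207 at day 7, against 19 and 21 at day 3 (log2 fold 2.88, SE 0.33, adjusted p = 0.00155). Lama5, a laminin chain of epithelial basement membranes, had 509 and 687 at day 7, against 139 and 175 at day 3 (1.92, SE 0.32, adjusted p = 0.00851). F2rl1, a protease-activated receptor, had 564 and 701 at day 7, against 111 and 160 at day 3 (2.23, SE 0.38, adjusted p = 0.00875). The keratinocyte list had 0 calls among 21 tested, with 10 above, 3 below and a median of 0.91, and its most abundant members were integrin genes. Itgb4 had 4007 in both day 7 libraries, against 5015 and 7715 at day 3 (-0.63, adjusted p = 0.709), and Itga6 3154 in both, against 3611 and 5488. Perp, a p53 target of desmosomes, had 2545 and 1255 at day 7, against 3276 and 2153 at day 3.

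Of the endogenous pluripotency genes, Nanog, Esrrb, Sall4, Zfp42 and Gdf3 had 23 or less in both day 7 libraries, while L1td1 of the same list was well above that on both days. Sall4, a zinc finger factor of the pluripotency network, had 22 and 23 at day 7, against 0 and 3 at day 3, and was called (log2 fold 3.55, SE 0.70, adjusted p = 0.0251), while iPSC had 1417 and 1325. Zfp42, a marker of naive cells, was called at 9 and 7, against 0 and 2 (2.37, SE 0.52, adjusted p = 0.0481), but lies outside the rule because none of the 4 libraries reached 10. Both genes rose within a range far below that of iPSC. Nanog, the core pluripotency factor, had 5 and 5 at day 7, against 0 and 1 at day 3, where OSK day 7 had 111 and 179 and iPSC 4616 and 4616. Esrrb, which acts with it in naive cells, had 2 and 1 at day 7, against 2 and 3 at day 3, where OSK day 7 had 63 and 60. Gdf3, a secreted growth factor of pluripotent cells, had 13 and 12 at day 7, against 1 and 1 at day 3 (2.75, adjusted p = 0.066). L1td1, whose protein binds RNA in stem cells, had 827 and 657 at day 7, against 403 and 440 at day 3 (0.81, adjusted p = 0.332), while iPSC had 2542 and 2406. Of 28 pluripotency genes tested, 12 met the rule of 10 or more in 2 libraries, 2 were called higher and 0 lower, 15 lay above, 0 below, and the median was 0.79. Of the same 28 genes in OSK, 11 were called higher and the median was 1.41.

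No gene on the fibroblast lists (matrix, mesenchymal regulators, contractile) was called, and the 17 genes called lower were on none of the 37 lists. Fam198b, a Golgi-associated kinase gene, had 14 and 19 at day 7, against 77 and 83 at day 3 (log2 fold -2.22, SE 0.41, adjusted p = 0.014), and had been 1081 and 1133 at day 0 and 156 and 225 at day 1. Nrk, a protein kinase of the X chromosome, had 101 and 82 at day 7, against 428 and 329 at day 3 (-2.03, SE 0.30, adjusted p = 0.00568), after 2043 and 1216 at day 1. Slit2, the secreted guidance ligand of Robo receptors, had 431 and 323 at day 7, against 923 and 883 at day 3 (-1.27, SE 0.25, adjusted p = 0.0249). Igfbp7, a secreted protein of the insulin-like growth factor binding family, was chosen after its values were seen and had a larger fold at a lower level, with 6 and 1 at day 7, against 37 and 23 at day 3 (-3.01, SE 0.54, adjusted p = 0.0137). In all 4 genes both day 7 libraries lay below every earlier library of the course. Fndc4, a secreted fibronectin-domain protein, had 15 and 29 at day 7, against 66 and 64 at day 3, and Arhgef17 had 175 and 114 against 309 and 380. Dpy19l3, a mannosyltransferase, had 150 and 162 at day 7, against 359 and 355 at day 3, and Ints2, a subunit of the Integrator complex, 358 and 258 against 735 and 533. Their log2 folds ran from -1.59 to -1.04, with adjusted p from 0.00525 (Arhgef17) to 0.036 (Fndc4).

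Matrix genes other than collagens had 0 calls among 29 tested, with 0 above, 14 below and a median of -0.62. Fbn1, the microfibril gene, had 3777 and 4020 at day 7, against 6131 and 7728 at day 3 (-0.82, SE 0.43, adjusted p = 0.608), while Sparc, another matrix protein, had 5483 and 7717 against 3609 and 6925. Collagens had 6 above and 7 below of 20 (median 0.02). Col1a2, a chain of type I collagen, stood at the ceiling of 21544 in all 4 libraries, where a change cannot be seen, and Col3a1, of type III collagen, had 11677 in both day 7 libraries, against 7737 in both at day 3 (0.59, adjusted p = 0.799). Mesenchymal regulators had 0 above and 5 below of 19 (-0.28), matrix proteases and inhibitors 2 and 11 of 25 (-0.33), contractile genes 0 and 7 of 15 (-0.41), and targets of TGF-beta and Yap 2 and 9 of 16 (-0.62), with 0 calls in each. Over all genes tested 17.5% lay above and 19.3% below. Tgfbr2, a TGF-beta receptor, had 1130 and 1140 at day 7, against 1077 and 1480 at day 3, and Prrx1, a mesenchymal homeobox gene, 1284 and 659 against 1593 and 968. Timp3 and Timp1, inhibitors of matrix proteases, had 2946 and 2545 against 3037 and 3614, and 1521 and 1165 against 1737 and 1633. Cald1, which binds actin in contractile cells, had 1737 and 1214 at day 7, against 2129 and 1773 at day 3 (-0.42, adjusted p = 0.695), and Tpm1, a tropomyosin, 898 and 608 against 1013 and 695. Axl, a receptor kinase on the last list, had 2123 and 1730 at day 7, against 3407 and 3031 at day 3 (-0.75, adjusted p = 0.289), and Ccn2, a secreted Yap target, 1940 and 310 against 1940 and 700. Lysosome and autophagy genes had 15 of 19 below, 2 above and a median of -0.45, with 0 calls. Lamp1, a lysosomal membrane protein, had 2409 in both day 7 libraries, against 4019 and 3415 at day 3 (-0.62, adjusted p = 0.292), and Ctsd, a lysosomal protease, 4307 and 2797 against 5488 and 6123. On the p53 and senescence list 10 of 20 lay below, 1 above, with a median of -0.31 and 0 calls. Ccng1, a p53 target, had 2306 and 1900 at day 7, against 6922 and 6922 at day 3, and just missed the threshold (-1.73, SE 0.39, adjusted p = 0.0536).

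AP-1 itself gave 0 calls among 15 subunits tested, with 4 above, 4 below and a median of 0. Fos, the main partner of Jun, had 2188 and 382 at day 7, against 40 and 14 at day 3, and despite a log2 fold of 5.21 its spread left it uncalled (SE 1.64, adjusted p = 0.215). Fosb, a related partner, had 1251 and 64 at day 7, against 19 and 17 at day 3 (3.91, SE 1.90, adjusted p = 0.561), and Atf3, a stress-induced partner, 184 and 15 against 19 and 14. In each of these 3 genes replicate 1 of day 7 was the high library, and replicate 1 was also the high one in OSK day 7, where Fos had 3771 and 405, and in MEF, where it had 1477 and 53. Jund had 1191 and 1201 at day 7, against 759 and 720 at day 3 (0.69, SE 0.25, adjusted p = 0.326). Genes known to respond to AP-1 had 2 above and 11 below of 26 (median -0.28), with 0 calls. Ccnd1, the cyclin of entry into the cell cycle, had 4302 and 11663 at day 7, against 3265 and 5481 at day 3, and Cd44, a hyaluronan receptor, 5038 and 4025 against 4026 and 3617, with log2 folds of 0.74 and 0.24.

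Among interferon-response genes, Oas2 changed differently with and without cJun. This gene, which makes the signal that activates antiviral RNA decay, had 913 and 606 at day 7, against 325 and 261 at day 3 of OSK-cJun, and was called higher (log2 fold 1.35, SE 0.24, adjusted p = 0.0119). In OSK it had 1456 and 1251 at day 7, against 2711 and 2616 at day 3 (-0.98, adjusted p = 0.0141), just under the fold threshold. The difference of these folds, OSK-cJun minus OSK, was 2.33 (SE 0.34, adjusted p = 0.0338), the 1 call among 16038 genes tested for it (0.00624%), with 1277 at unadjusted p below 0.05. Both OSK-cJun days lay below both OSK days in level. The gene is ENSMUSG00000032690, protein coding, at chr5:120730333-120749853 on GRCm38. Across the list of 27, 16 genes lay above and 3 below with cJun (median 0.42), while in OSK 0 lay above and 22 below (median -0.99), with 4 called lower. Some other lists also leaned to 1 side. The fold with cJun was above that in OSK for 17 of 19 mesenchymal regulators. It was above for 2 of 22 respiratory chain genes and 2 of 23 genes of amino acid and unfolded protein stress. For the interferon list the fold with cJun was above that in OSK for 27 of 27, against 47.6% of all genes tested. Rsad2, Ifit1 and the others of the list were not called for that difference: Ifit1, an antiviral RNA-binding protein gene, had 294 and 294 at day 7, against 200 and 169 at day 3 with cJun, and 186 and 133 against 674 and 658 in OSK (difference 2.75, adjusted p = 0.139). Gbp2, an interferon-induced GTPase, had 6942 and 4629 at day 7, against 8993 and 8993 at day 3.

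Antigen presentation genes, which interferon also raises, had 18 of 20 above, 1 below and a median of 1.04, with 0 calls. B2m, the light chain of MHC class I, had 8981 in both day 7 libraries, against 5489 in both at day 3 (0.71, SE 0.37, adjusted p = 0.604). H2-K1, a class I heavy chain whose reads may be shared with related genes, had 5488 in both, against 1651 and 3034 (1.29, adjusted p = 0.569). Cd74, the class II invariant chain, had 83 and 146 at day 7, against 8 and 4 at day 3, and was 0 in all 4 libraries of days 0 and 1 (4.05, SE 1.31, adjusted p = 0.222). The OSK median of this list was 0.71, with 10 of 20 above and 2 below. Cd74 passed the call when the 2 OSK day 5 libraries, at 4 and 508, were left out of the fit. It also passed with the spread of the 8 OSK-cJun libraries, while B2m and H2-K1 passed in no alternative.

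**Figure D3:**
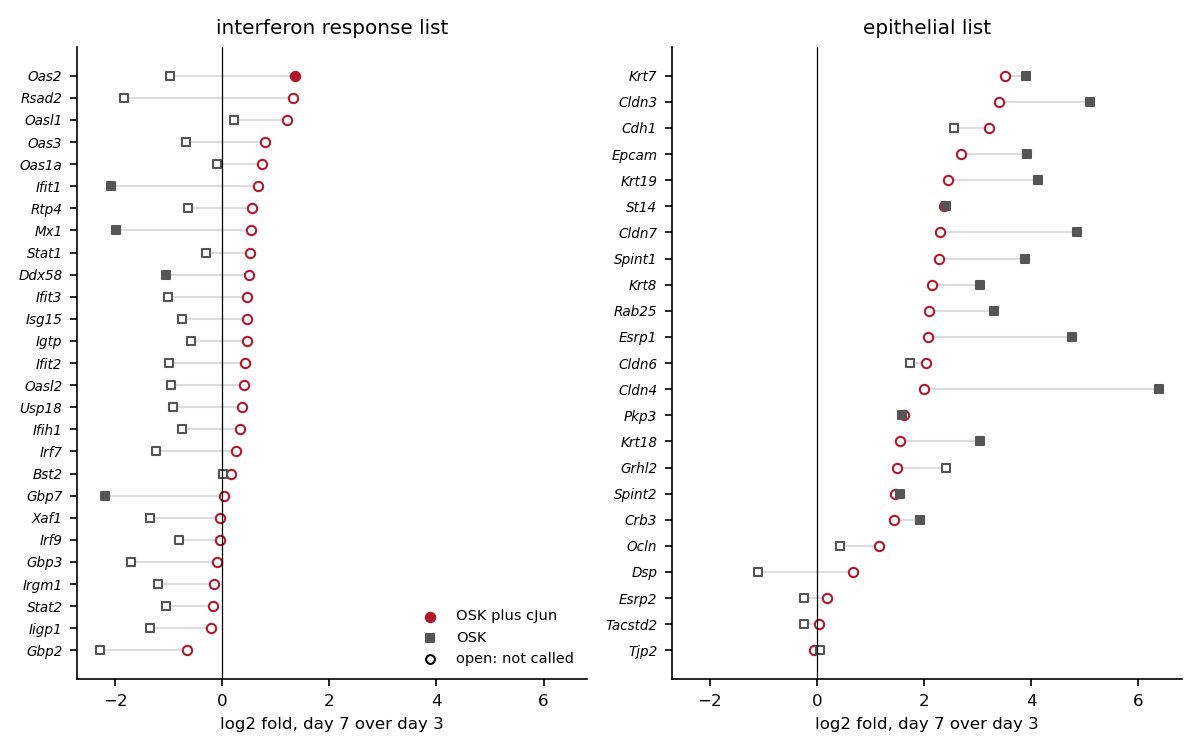
Log2 fold of day 7 over day 3 (x axis) for each tested gene of the interferon response and epithelial lists, with OSK-cJun as red circles, OSK as grey squares and filled symbols for called genes. All 27 interferon genes have a higher fold with cJun than in OSK, and most epithelial genes lie above 0 in both. With cJun, Oas2 is the 1 gene called, while in OSK 4 interferon genes are called lower and 15 epithelial genes higher.

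The same step was made by OSK without cJun with many more calls: 541 genes higher (3.37%) and 675 lower (4.21%). Of the 75 genes called higher with cJun 46 were also called higher in OSK, which is 61.3% of the cJun list and 8.50% of the OSK list. Of the 17 called lower 8 were also called lower in OSK, which is 47.1% of the one and 1.19% of the other. None was called in opposite directions. Among hypoxia and glycolysis genes called in both, Ndufa4l2 had log2 folds of 6.74 with cJun and 7.82 in OSK, Slc16a3 5.32 and 5.58, Bnip3 3.07 and 3.27, Pdk1 3.01 and 2.65 and Ldha 1.32 and 1.69. Other genes with a larger fold with cJun than in OSK were not called for the difference, as Oas2 was. Spock2 had a fold of 4.54 with cJun and 0.92 in OSK, whose day 3 libraries already had 267 and 380 (difference 3.61, SE 0.81, adjusted p = 0.143). Dkk2 had 2.23 with cJun and -0.31 in OSK (difference 2.54, SE 0.52, adjusted p = 0.137), and Atp2b2, at 6 and 3 in OSK day 7, had 3.74 and 0.32 (difference 3.42, adjusted p = 0.269). On the other side, Nanog had 2.08 with cJun and 5.86 in OSK (difference -3.77, adjusted p = 0.343), and Esrrb -0.50 and 5.97 (difference -6.47, adjusted p = 0.137).

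**Figure D4:**
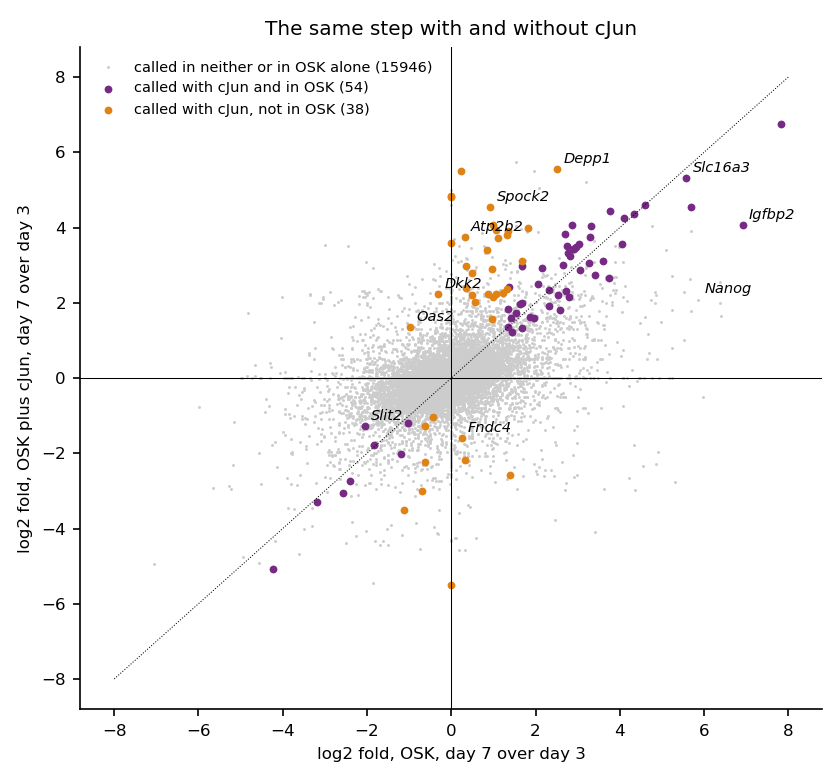
Log2 fold of day 7 over day 3 with cJun (y axis) against that in OSK (x axis) for the 16038 genes tested, with the dotted line at equal folds. Of the 92 genes called with cJun, 54 were also called in OSK (purple) and 38 were not (orange).

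The next lists had 0 calls in each and medians from -0.21 to 0.36. For their counts, 17.5% of all genes tested lay above and 19.3% below. Cell cycle and replication genes had 7 above and 0 below of 30 (median 0.14), with Mki67 at 2721 and 1947 at day 7, against 2409 and 1797 at day 3, and Top2a at 2414 and 2477, against 1831 and 1439. Cholesterol synthesis had 0 above and 7 below of 22 (-0.21), amino acid and unfolded protein stress 4 and 2 of 23 (0.02), inflammatory secreted factors 2 and 3 of 13 (0.03) and 3 ribosomal protein genes 0 and 0 (0.09). Chromatin lists had more genes above than below, with 10 above and 1 below of 20 Sin3 and NuRD deacetylase genes (0.18) and 6 and 2 of 19 polycomb and DNA methylation genes (0.17). Hox genes had 3 above and 4 below of 32 (-0.07) and imprinted genes 7 and 9 of 24 (-0.20). Single imprinted genes moved more in either direction without being called, here chosen after their values were seen. Igf2 had 124 and 58 at day 7, against 724 and 796 at day 3, and Peg10 890 and 1077 against 185 and 150. Lists of other lineages had medians of 0.36 (primitive endoderm and trophoblast, 15 tested), 0 (primed pluripotency and mesendoderm, 10), 0 (germline, 16), 0 (cartilage and bone, 9) and -0.13 (adipocyte, 8).

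Markers of cells that could accompany fibroblasts moved with the days as follows. The macrophage and blood list summed to 730 and 402 at day 7, against 1057 and 1010 at day 3, with 0 above and 3 below of 16 tested (median -1.16). Most of each sum was Cd68, at 527 and 351 against 688 and 883. Cd68 had only 65 and 92 at day 0, so the sums may not follow macrophages. The defining gene Adgre1 was at 0 in both day 7 libraries, against 12 and 3 at day 3 and 37 and 21 at day 0. Ptprc had 79 and 0, against 66 and 27. The endothelial list summed to 1208 and 639 at day 7, against 1861 and 1069 at day 3, with Cdh5 at 0 in both day 7 libraries, against 4 and 0, and 1 above and 2 below of 10 (median -0.10). Most of each endothelial sum was Tek and Kdr, with Tek at 748 and 509 against 795 and 637, and at 11 and 6 in MEF. The part of such cells in the results above was not tested.

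**Figure D5:**
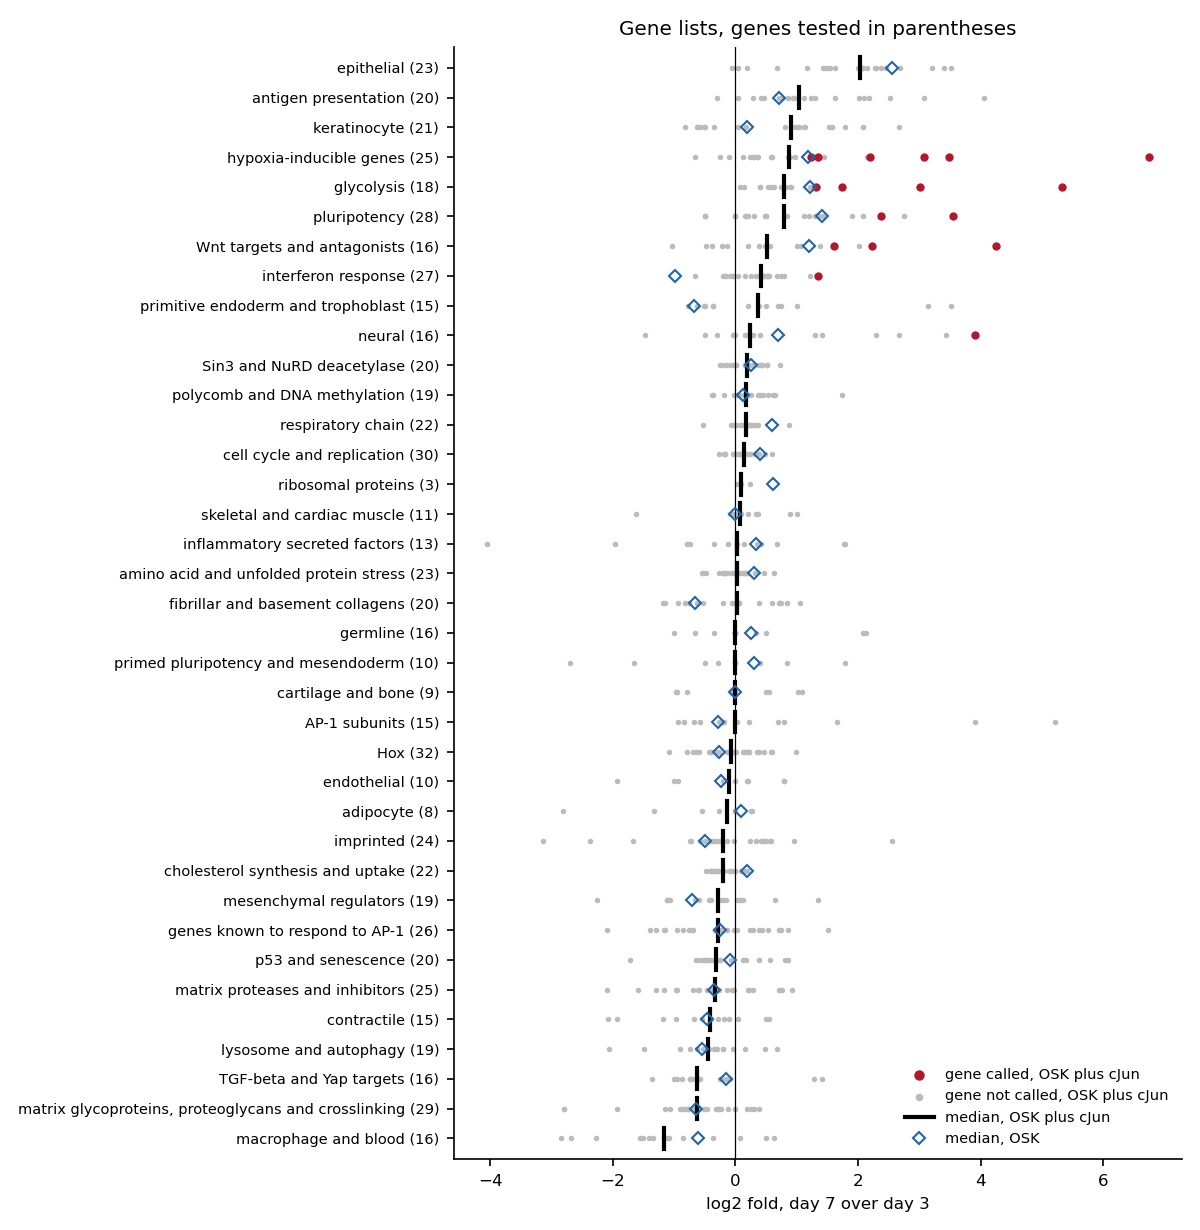
Log2 fold of day 7 over day 3 (x axis) for each tested gene of the 37 lists (y axis, ordered by median), with called genes in red, other genes in grey, the OSK-cJun median as a black bar and the OSK median as a blue diamond. The epithelial list has the highest median (2.03) without a call, and calls are seen in the hypoxia, glycolysis, pluripotency, Wnt, interferon and neural lists.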

How the data were processed

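Per the labels' protocols, TRIzol RNA went through a TruSeq kit onto a NextSeq 500. The submitters' processing notes list bcl2fastq, RSEM, Bowtie2 and the mm10 build without versions. The deposited values are a score of whole numbers, with library totals between 4619641 and 4624161 and the highest value, 21544, the same in every library, so they were treated as normalised and not as reads. Of 18198 genes, 18039 matched a GRCm38 symbol and 159 did not, and 0 sample columns were left unused.

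The 16038 genes that reached 10 in 2 or more of 26 libraries were tested. Limma 3.58.1 in R 4.3.3, with statmod 1.5.0 and data.table (version 1.17.8) for input, was fitted to log2(value + 1) of all 26 libraries with 1 mean per group, with trended and robust variances. Every adjusted p is from this fit, by Benjamini-Hochberg over all genes tested. The difference between courses was the interaction of day and cJun. The fit was tested on simulated data.

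The factors and the 14 largest increases and decreases with non-overlapping libraries and a mean of at least 50 on the higher day were named (7 decreases qualified), with up to 4 called members per list, or the 2 most abundant where none was called, although lists given by counts or defining markers alone have none of these and 1 gene is not reported here. Other genes named were chosen after their values were seen. Members and lists were chosen with earlier results of these data known, and the hypoxia and Wnt lists and hypoxia motif were added after values were seen. Plots used matplotlib 3.10.9 (Python 3.11.15).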

Additional observations from a re-analysis of the deposited data

Results flagged for a closer look

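The response of Oas2 from day 3 to day 7 differed between the courses with and without cJun. The difference of its log2 folds, OSK-cJun minus OSK, was 2.33 (SE 0.34, limma adjusted p = 0.0338), with both day 7 libraries above both day 3 libraries in OSK-cJun and both below in OSK. Over 18 alternatives the difference ran from 2.03 to 2.62 and its adjusted p from 0.00107 to 0.16.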

How the results depend on the processing

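The 43 called genes with values given here kept their direction in every alternative that gave a value. Of 55 genes not called that were followed in the same way, 7 passed the call in some alternative, and 11 changed sign on leaving out a library. Of 92 genes called in OSK-cJun day 7 over day 3, the count moved to 59 with a pseudocount of 0.1 (51 shared, 71.2% higher against 81.5%), 149 with a pseudocount of 8 (79 shared) and 0 with the spread of the compared libraries alone, and ran from 19 to 46 when 1 of the 4 libraries was left out. The 1 call for the difference from OSK became 0 with a pseudocount of 0.1, 48 with 8, 13 without a filter or with neither robust nor trended variances, 0 with the spread of the 8 compared libraries, 11 with that of 18 course libraries, 12 without the OSK day 5 libraries, and 0 to 7 over 8 leave-outs. Over the 4 leave-outs, log2 folds ran from -0.26 to 0.30 for Jun and for Klf4, -0.10 to 0.39 for Mki67, -0.11 to 3.42 for Atf3, -0.09 to 0.85 for Sparc, -1.91 to 0.73 for Ccn2, -0.38 to 0.08 for Tgfbr2, -0.91 to 0.05 for Prrx1, -0.46 to 0.10 for Tpm1, -0.24 to 1.98 for Atp5b and -1.67 to 0.61 for Ndufa4. The causes were not tested.

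Subtracting library medians changed neither count. With the replicate number as a block, 123 genes were called (92 shared), 93 higher and 30 lower against 75 and 17 without it, and 1 for the difference; Gdf3 passed (adjusted p = 0.0462). The difference between the 2 day 7 libraries correlated across genes with that between same-numbered libraries of OSK-cJun day 3 (0.278), of OSK-cJun days 0 and 1 (0.193 and 0.232) and of OSK days 0, 1, 3 and 7 (0.2, 0.233, 0.297 and 0.306), but at 0.02 with OSK day 5 and at -0.049 to -0.009 with the other 4 groups. The labels give the number no meaning and each day has 2 libraries, so this is a hint from the data and not part of the design. Leaving out a library left 1 in its group, assumed to vary like the others. Depth is unknown, values near 0 understate folds, and values near 21544 are tied.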
